A study of Mus musculus with 16 samples.

Results

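Gene expression was compared in 10 of the 16 libraries of a series of mouse organoids, which are 3-dimensional cell cultures, to ask in which genes the difference between 2 tumour genotypes itself differed between samples with and without the prefix Lung in their titles. The quantity tested for each gene was a difference of differences on the log2 scale, namely Lung-LMP1 minus Lung-Ctr, less LMP1 minus Ctr. Lung-LMP1 (n = 3) and LMP1 (n = 2) are organoids of genotype TMPL, that is Trp53-/- with Myc, a guide RNA against Cdkn2a and the added LMP1. Lung-Ctr (n = 2) and Ctr (n = 3) are organoids of genotype TMP, which carries the same Trp53 genotype, Myc and guide without LMP1. All 4 groups are C57BL/6 and, per the growth protocol, were cultured from tumours that arose in recipient mice after transplantation into the nasopharynx. The sample descriptions call every TMPL library a metastasis and every TMP library primary, so genotype and that label cannot be told apart in these libraries. The design text names primary and metastasized organoids of both genotypes, and the prefix Lung is therefore used here as a title and not as a site of growth. The labels state neither the age of the mice, nor the promoter behind LMP1 and Myc, nor whether a group stems from 1 clone or from pooled animals. The 6 libraries of normal tissue took no part.

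LMP1 is the latent membrane protein of Epstein-Barr virus, a receptor-like protein that signals without a ligand and feeds the NF-kB, JNK and interferon-regulatory pathways. In the nasopharynx the virus infects a stratified epithelium, whose basal cells rest on a specialised laminin, hold together through desmosomes and build a barrier as they rise to the surface. Grainyhead-like (GRHL) transcription factors and the splicing regulator Esrp1 help to keep such cells epithelial, while factors of the ZEB and SNAI families repress epithelial genes in an epithelial-mesenchymal transition (EMT).

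A value above 0 means that Lung-LMP1 stood higher relative to Lung-Ctr than LMP1 stood relative to Ctr, and a value below 0 the opposite. A gene was called where edgeR's quasi-likelihood test gave a Benjamini-Hochberg adjusted p under 0.05 over all 13460 genes tested. The test called 120 genes, 0.892% of those tested, with 109 higher (0.81%) and 11 lower (0.0817%), and 2105 genes (15.6%) had an unadjusted p under 0.05, 1195 of them with a value above 0 (8.88%) and 910 with one below 0 (6.76%). The called genes were mainly low in the 2 LMP1 libraries and near level in the other 3 groups. Their median value was 4.10 among the 109 called higher and -2.55 among the 11 called lower, against 0.03 over all genes tested.

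The 2 differences behind each value were read from the same fit and were not tested on their own. Among the 109 genes called higher, the median Lung-LMP1 to Lung-Ctr difference was 0.23 and the median LMP1 to Ctr difference -3.81 (log2). In the 11 called lower, these medians were -0.75 and 1.46. LMP1 was the group farthest from the other 3 in 115 of the 120, against 6978 of 13460 genes tested (51.8%). It was the low group in 108 of them and the high group in 7. The farthest group was Lung-LMP1 in 4 genes (Cnfn, Gpsm1, Katnal1 and Ogdhl) and Lung-Ctr in Amotl2, which are named here because of this pattern. All 109 genes called higher had both LMP1 libraries below the other 8, as had 16.9% of all genes tested, and 9 of the 11 called lower had both above the other 8, as had 15.1% of all. The calls rest on the same values, so nothing is read from these shares.

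**Figure D1:**
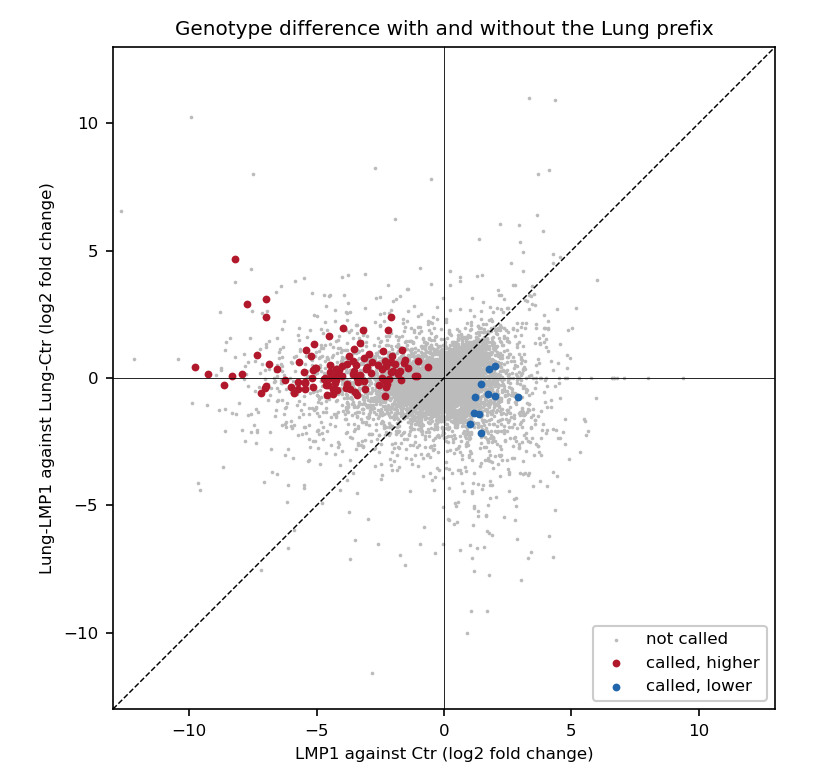
Log2 fold change of LMP1 against Ctr (x axis) and of Lung-LMP1 against Lung-Ctr (y axis) for the 13460 genes tested, with called genes in colour and a dashed line where both differences are equal. The 109 genes called higher (red) lie left of 0 and mostly close to the horizontal line at 0, and the 11 called lower (blue) lie right of 0.

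Called genes had the same sign in both differences in 44 cases and opposite signs in 76 (63.3%). Over all genes tested, the signs were opposite in 4921 (36.6%), and since the calls rest on these differences nothing is read from this. The Lung-LMP1 to Lung-Ctr difference was smaller than 1 log2 unit either way in 101 of the 120. That is close to the share over all genes tested, 11482 of 13460, and does not mark out the called genes. This difference was at least 1 in 15 genes called higher and -1 or less in 4 called lower, against 688 and 1290 of all genes tested. Across the genes called higher, the median log2 CPM (read counts per common library size, adjusted by TMM factors) was 6.17, 6.12 and 6.23 in Lung-LMP1 and 5.77 and 6.03 in Lung-Ctr, with 1.47 and 2.04 in LMP1 and 6.03, 5.33 and 5.85 in Ctr. Ctr 2 had the lowest of the 3 Ctr values in 75 of these 109 genes, against 4207 of all 13460.

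Depth and the make-up of the libraries set the limits of these calls. Total counts were 12535166 to 18067227 per library, so that 3 counts, the floor for a gene with no reads, are 0.166 to 0.2393 CPM. On the 1000 most variable genes, the first principal component (56.3% of variance) placed the LMP1 libraries at 97.8 and 87.2, Ctr 2 at 23.2 and the other 7 between -37.9 and -10.0, and the second (17.9%) set Lung-Ctr 1 apart at -59.8. The count of calls was 331 without Ctr 2, 274 without Lung-Ctr 2, 66 without Ctr 3, 53 without Lung-Ctr 1 and 43 without Ctr 1. It was 23, 9 and 9 without Lung-LMP1 2, 1 and 3, and 4 and 5 without LMP1 1 and LMP1 2. All 120 genes kept their sign in each of these fits. DESeq2 called 926 genes, among them all 120. A block for replicate number left 2 genes called, both among the 120, and the labels do not say whether the numbers pair libraries. The groups of 2 libraries carry much of each value, and beyond these fits the libraries' part in the calls was tested only by leaving out Ctr 2 and Lung-Ctr 1 together, which gave 318 calls (217 higher, 101 lower).

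**Figure D2:**
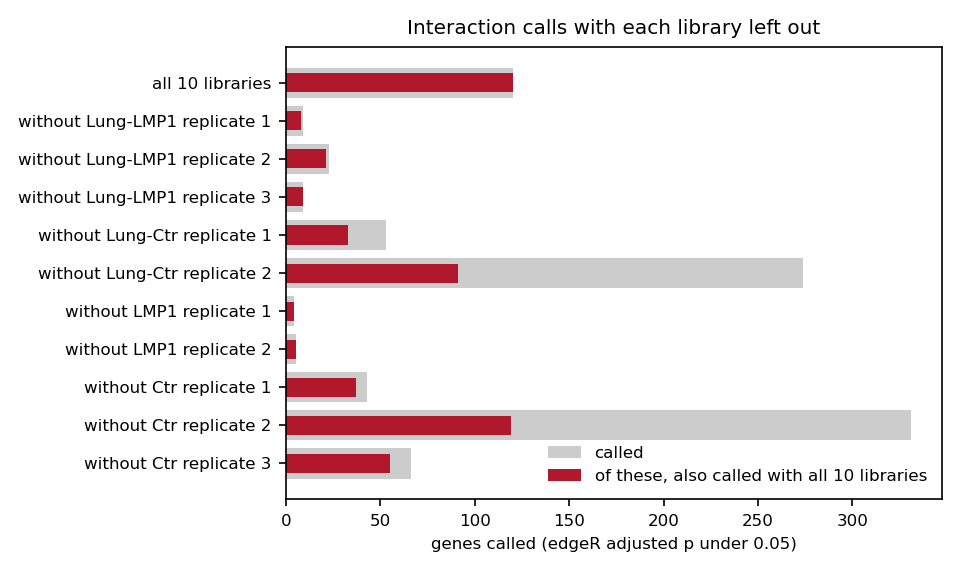
Number of genes called (x axis, edgeR adjusted p under 0.05) with all 10 libraries and with each library left out, with the part that is also called with all 10 in red. The counts run between 4 without LMP1 1 and 331 without Ctr 2, and 119 of the 120 calls are among those 331.

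The modified genes of the tumour model did not pass the test. Trp53 had 87.8, 105 and 109.9 CPM in Lung-LMP1 and 59.1 and 86.9 CPM in Lung-Ctr, with 99.9 and 105 CPM in LMP1 and 56.2, 74.9 and 65 CPM in Ctr, and its difference of differences was -0.18 ± 0.29 (log2 ± SE, edgeR adjusted p = 0.826). Cdkn2a had 177, 306 and 193 CPM in Lung-LMP1 and 123 and 364 CPM in Lung-Ctr, with 364 and 319 CPM in LMP1 and 301, 220.5 and 217 CPM in Ctr, with a value of -0.58 ± 0.58 (edgeR adjusted p = 0.695). Reads of both remain in all libraries, and the deleted or targeted stretch cannot be read from counts per gene. Myc, the driver oncogene, had 1299, 611 and 1102 CPM in Lung-LMP1 and 463 and 575 CPM in Lung-Ctr, with 1912 and 1771 CPM in LMP1 and 793, 642 and 620.1 CPM in Ctr, with a value of -0.47 ± 0.40 (edgeR adjusted p = 0.627). Viral LMP1 was not analysed here, since the tables used list mouse genes.

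Epithelial identity was checked on 7 markers of squamous or basal epithelium (Krt5, Krt14, Trp63, Itga6, Itgb4, Cdh1 and Epcam). Their summed level was 4861 to 5812 CPM in Lung-LMP1 and 3506 to 6036 in Lung-Ctr, with 413 to 673 in LMP1 and 2063 to 4841 in Ctr. All 7 markers had reads in all 10 libraries, and the LMP1 sums lay below the 8 others. Cdh1, the adhesion molecule E-cadherin, had 998, 1003 and 794 CPM in Lung-LMP1 and 888 and 636 CPM in Lung-Ctr, with 157 and 289.7 CPM in LMP1 and 777, 485 and 629 CPM in Ctr. Krt5, a basal keratin, had 1890.0, 597 and 1392 CPM in Lung-LMP1 and 20.1 and 2016 CPM in Lung-Ctr, with 4.33 and 12.2 CPM in LMP1 and 658, 424 and 1803 CPM in Ctr, so that it was near its LMP1 level in Lung-Ctr 1 as well. In bulk RNA, fewer epithelial cells and less of these RNAs per cell cannot be told apart.

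Promoters that hold a GRHL motif (AACNGGTT) or the core of ZEB and SNAI sites (CACCTG) are shown first. They belong to the genes of smallest adjusted p among the called genes named by rule, not among all called genes. Members of both factor families are among the regulators described below. Each runs from 250 bases before to 50 after the gene's start, 5′ to 3′ on the gene's strand, as given by RefSeq for GRCm38.p6, with matches on either strand in capitals. Psapl1 is at chr5:36203771-36204070 (plus strand), Ap1m2 at chr9:21312284-21312583 (minus), Rab25 at chr3:88548230-88548529 (minus) and Grhl3 at chr4:135573583-135573882 (minus).
Psapl1: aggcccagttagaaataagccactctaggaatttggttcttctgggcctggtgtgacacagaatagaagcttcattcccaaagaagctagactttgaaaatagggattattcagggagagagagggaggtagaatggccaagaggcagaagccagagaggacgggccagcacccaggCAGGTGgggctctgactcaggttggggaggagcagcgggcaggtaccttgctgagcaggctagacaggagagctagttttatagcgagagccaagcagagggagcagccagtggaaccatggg
Ap1m2: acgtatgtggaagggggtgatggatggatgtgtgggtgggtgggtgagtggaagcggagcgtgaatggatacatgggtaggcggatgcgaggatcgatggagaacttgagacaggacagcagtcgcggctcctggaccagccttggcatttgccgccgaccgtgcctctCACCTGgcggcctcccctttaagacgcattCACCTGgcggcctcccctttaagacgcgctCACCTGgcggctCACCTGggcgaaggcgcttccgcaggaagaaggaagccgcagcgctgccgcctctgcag
Rab25: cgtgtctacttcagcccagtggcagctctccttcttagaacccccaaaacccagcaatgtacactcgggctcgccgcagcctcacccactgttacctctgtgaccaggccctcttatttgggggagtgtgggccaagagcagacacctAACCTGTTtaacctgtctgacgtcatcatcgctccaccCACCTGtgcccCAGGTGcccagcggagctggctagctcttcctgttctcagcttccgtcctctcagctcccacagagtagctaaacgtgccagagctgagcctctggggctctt
Grhl3: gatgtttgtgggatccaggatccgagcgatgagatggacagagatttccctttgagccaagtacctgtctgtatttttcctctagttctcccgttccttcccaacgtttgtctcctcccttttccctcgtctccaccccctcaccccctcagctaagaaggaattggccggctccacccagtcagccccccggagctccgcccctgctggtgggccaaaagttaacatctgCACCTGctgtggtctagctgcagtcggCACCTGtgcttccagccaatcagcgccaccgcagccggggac
Ap1m2 holds 4 matches of CACCTG, Grhl3 and Rab25 hold 2 each and Psapl1 holds 1, and Rab25 holds 1 match of AACNGGTT as well.

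These motifs were counted on both strands in 1 promoter per gene, for the 77 genes called higher, the 9 called lower and the 10171 genes tested that have one in the RefSeq table. CACCTG was found in 28 of the 77 (36.4%) and in 2 of the 9 (22.2%), against 1820 of all (17.9%). AACNGGTT was found in 4 of the 77 (5.19%) and 0 of the 9, against 188 of all (1.85%). TGANTCA, the motif of AP-1, was in 10 of the 77 (13.0%) and 0 of the 9, against 532 of all (5.23%). CACGTG, bound by MYC and other bHLH factors, was in 6 of the 77 (7.79%) and 2 of the 9 (22.2%), against 1036 of all (10.2%). None of the 4 motifs contains another, and a match is a description of letters, not of binding.

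Of all genes tested, 0.81% were called higher and 0.0817% lower, the shares to set beside the counts of each list from here on. Of 18 regulators of epithelial transcription and splicing, 5 were called higher, none was called lower and 13 did not pass. Their median value was 2.69, against 0.03 over all genes tested, with medians of 0.42 for Lung-LMP1 against Lung-Ctr and -2.21 for LMP1 against Ctr. Grhl3, a grainyhead factor of the epidermal barrier whose promoter stands above, had 18.4, 26.8 and 14.2 CPM in Lung-LMP1 and 14 and 13.6 CPM in Lung-Ctr, with 1.06 and 1.17 CPM in LMP1 and 12.2, 9.28 and 14.9 CPM in Ctr. The LMP1 libraries were low, and the other 8 lay between 9.28 and 26.8 CPM. Its difference of differences was 3.96 ± 0.50 (log2 ± SE, edgeR adjusted p = 0.0218), made of 0.52 ± 0.32 for Lung-LMP1 against Lung-Ctr and -3.44 ± 0.38 for LMP1 against Ctr. Grhl2, the grainyhead factor that supports junction genes, had 126, 110.0 and 108 CPM in Lung-LMP1 and 98.8 and 134 CPM in Lung-Ctr, with 6.86 and 11 CPM in LMP1 and 116, 60.5 and 107 CPM in Ctr. Its value was 3.38 ± 0.46 (edgeR adjusted p = 0.0239), with the Lung-LMP1 and Lung-Ctr libraries overlapping.

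Further called members were the splicing regulator Esrp1, with a value of 2.43 ± 0.43 (edgeR adjusted p = 0.0446), and the pioneer factor Foxa1, with 3.94 ± 0.70 (edgeR adjusted p = 0.0446). Esrp1 had 374, 449.7 and 425 CPM in Lung-LMP1 and 373 and 464 CPM in Lung-Ctr, with 52.9 and 92 CPM in LMP1 and 507, 273 and 395 CPM in Ctr. Foxa1 had 129, 286 and 128 CPM in Lung-LMP1 and 150.3 and 57.2 CPM in Lung-Ctr, with 11.8 and 14.3 CPM in LMP1 and 141, 104 and 100.5 CPM in Ctr. In both genes the 2 LMP1 libraries lay below the other 8. Trp63, the p63 factor of basal cells, did not pass. It had 235, 132 and 161 CPM in Lung-LMP1 and 52.9 and 346 CPM in Lung-Ctr, with 2.48 and 1.89 CPM in LMP1 and 152, 57.7 and 333 CPM in Ctr, so that Lung-Ctr 1 and Ctr 2 lay below the remaining libraries outside LMP1, and its value was 6.18 ± 1.33 (edgeR adjusted p = 0.073). Fits with 1 library left out kept the call of Grhl3 in 6 of 10 and that of Grhl2 in 4 of 10.

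Junction and adhesion genes gave 5 calls higher (0.81% over all genes tested) and none lower among 28 members, with 23 not passing. The median value was 1.77, beside 0.03 over all genes, with medians of -0.02 for Lung-LMP1 against Lung-Ctr and -1.65 for LMP1 against Ctr. Ap1m2, the epithelial subunit of the clathrin adaptor that sorts proteins to the basolateral membrane (chr9:21294275-21312337), had 90.8, 102 and 90.7 CPM in Lung-LMP1 and 123 and 108 CPM in Lung-Ctr, with 2.75 and 4.88 CPM in LMP1 and 95.8, 68.2 and 108 CPM in Ctr. Its value was 4.28 ± 0.40 (edgeR adjusted p = 0.00716), and here Lung-LMP1 lay slightly below Lung-Ctr, by -0.29 ± 0.25. The call of Ap1m2 held in all 10 fits with 1 library left out.

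Rab25, a GTPase of recycling endosomes in epithelia (chr3:88542029-88548300), had 179.9, 160.4 and 170.2 CPM in Lung-LMP1 and 148 and 191 CPM in Lung-Ctr, with 9.24 and 14.8 CPM in LMP1 and 132, 89.2 and 152 CPM in Ctr. Its value was 3.37 ± 0.40 (edgeR adjusted p = 0.0195), and the difference of Lung-LMP1 against Lung-Ctr was 0.01 ± 0.26. Claudin 7 (Cldn7), a tight junction strand protein, had 187, 342 and 258 CPM in Lung-LMP1 and 271 and 141 CPM in Lung-Ctr, with 17.2 and 27.5 CPM in LMP1 and 242, 199 and 124 CPM in Ctr, and its value was 3.42 ± 0.59 (edgeR adjusted p = 0.0428). Inadl, the polarity scaffold now named Patj, had 82.5, 97.2 and 76.8 CPM in Lung-LMP1 and 92.8 and 85 CPM in Lung-Ctr, with 9.66 and 17.9 CPM in LMP1 and 69, 63.8 and 53.3 CPM in Ctr, and its value was 2.12 ± 0.37 (edgeR adjusted p = 0.0435). All 3 were low in both LMP1 libraries, and the Lung-LMP1 and Lung-Ctr ranges overlapped in each. E-cadherin (Cdh1), described above, had a value of 1.79 ± 0.43 and Epcam, an epithelial adhesion molecule, one of 2.14 ± 0.73, and neither passed (edgeR adjusted p = 0.0981 and 0.209).

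**Figure D3:**
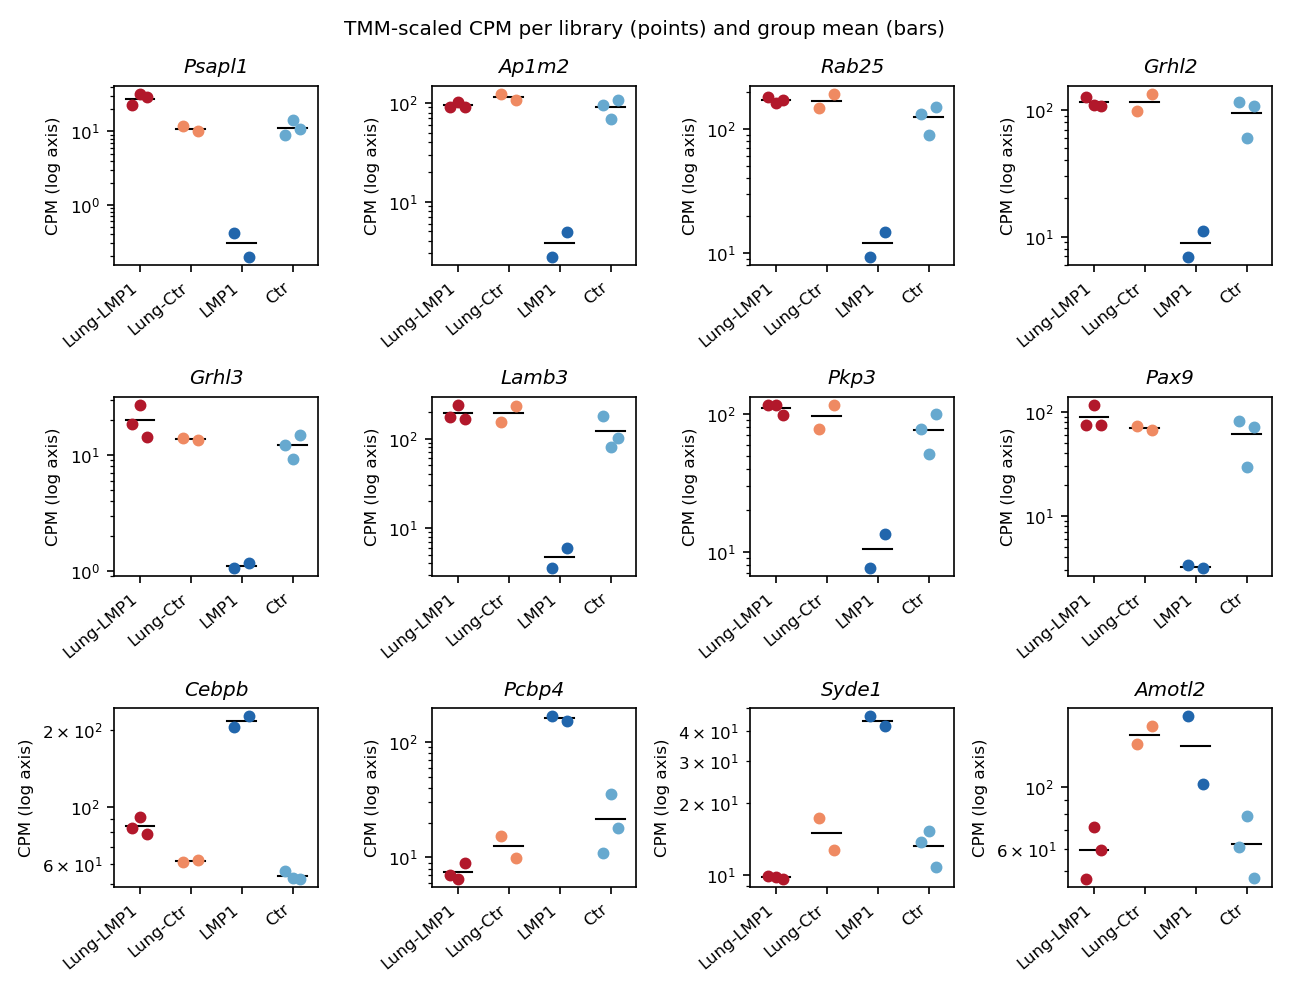
TMM-scaled CPM (log axis) of 12 called genes in Lung-LMP1, Lung-Ctr, LMP1 and Ctr, with 1 point per library and a bar at the group mean. The first 8 genes are low in both LMP1 libraries, as Ap1m2 at 2.75 and 4.88 CPM, and of the last 4 Cebpb, Pcbp4 and Syde1 are high there, while Amotl2 is high in Lung-Ctr and LMP1.

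Desmosome genes, which anchor keratin filaments between cells, gave 1 call higher among 10 members (0.81% over all genes tested), and 9 did not pass. The median value was 2.42, with 8 of the 10 above 0 at an unadjusted p under 0.05, beside 8.88% of all genes tested. Plakophilin 3 (Pkp3), the called member, had 116, 116 and 99 CPM in Lung-LMP1 and 78.2 and 116 CPM in Lung-Ctr, with 7.6 and 13.5 CPM in LMP1 and 78.5, 51.3 and 100.2 CPM in Ctr, and its value was 3.05 ± 0.49 (edgeR adjusted p = 0.0395). Of 10 genes of the hemidesmosome and its laminin, 3 were called higher (0.81% over all genes tested), none lower, and the median was 2.47. Lamb3, the beta chain of that laminin, had 174, 236 and 164 CPM in Lung-LMP1 and 154 and 233 CPM in Lung-Ctr, with 3.54 and 5.99 CPM in LMP1 and 179.9, 79.7 and 101 CPM in Ctr. Both LMP1 libraries were below 6 CPM, and Ctr 2 was the lowest of the other 8. Its value was 4.65 ± 0.58 (edgeR adjusted p = 0.0218), made of -0.01 ± 0.37 for Lung-LMP1 against Lung-Ctr and -4.66 ± 0.47 for LMP1 against Ctr. Itga3, an integrin chain of its receptor, stayed more abundant in LMP1 and had 1293, 1574 and 1022 CPM in Lung-LMP1 and 1092 and 1071 CPM in Lung-Ctr, with 196 and 289 CPM in LMP1 and 716, 802 and 902 CPM in Ctr. Its value was 2.0 ± 0.32 (edgeR adjusted p = 0.0395). These calls held in 5 (Lamb3), 2 (Pkp3) and 1 (Itga3) of 10 fits with 1 library left out.

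Keratins, the intermediate filaments of epithelia, showed larger values but wider spread. None of the 4 basal keratins passed at the settings used for the calls, although their median value was 7.20 and all 4 were above 0 at an unadjusted p under 0.05, beside 8.88% of all genes tested. Krt17 had 1843, 584 and 974 CPM in Lung-LMP1 and 212 and 1064 CPM in Lung-Ctr, with 4.65 and 12.3 CPM in LMP1 and 622, 291 and 1162 CPM in Ctr. Its value of 7.18 ± 1.33 missed the threshold (edgeR adjusted p = 0.0513) and passed without Ctr 2, at 7.55 (edgeR adjusted p = 0.0296), and with offsets for transcript length and GC content (edgeR adjusted p = 0.0434), or with non-robust dispersions (edgeR adjusted p = 0.0499). Krt14 had 891, 412 and 551 CPM in Lung-LMP1 and 73.7 and 473 CPM in Lung-Ctr, with 4.7 and 12.1 CPM in LMP1 and 85.5, 89.2 and 503 CPM in Ctr, with a value of 5.94 ± 1.52 (edgeR adjusted p = 0.116). Lung-Ctr 1 held the lowest Krt5, Krt14 and Krt17 outside LMP1, which widened the spread of Lung-Ctr. Among 7 suprabasal and stress keratins none passed, with a median of 5.72. Krt6a, a keratin of stressed and wounded epithelium, had 2432, 1347 and 970.5 CPM in Lung-LMP1 and 904 and 838 CPM in Lung-Ctr, with 4.12 and 15.8 CPM in LMP1 and 84.7, 783 and 802 CPM in Ctr, and its value was 6.67 ± 1.39 (edgeR adjusted p = 0.0701). Of 6 keratins of simple epithelia only Krt23 was called.

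Krt23 had 9.37, 27.9 and 9.8 CPM in Lung-LMP1 and 2.05 and 2.15 CPM in Lung-Ctr, with 0 and 0.195 CPM in LMP1 and 13.8, 45 and 3.37 CPM in Ctr. The 2 LMP1 libraries held 3 counts of it together, which is 237-fold lower than Ctr (95% interval 80.8 to 1151) and 188-fold lower than Lung-LMP1 (64.2 to 916), from counting error only. Its edgeR adjusted p was 0.0469, or 0.0604 without a filter on low counts, and Ctr ranged widely, with Ctr 2 the highest. Abca12, the transporter that loads barrier lipids into lamellar granules, had 71.7, 54.6 and 95 CPM in Lung-LMP1 and 14.6 and 94 CPM in Lung-Ctr, with 0.0528 and 0.0651 CPM in LMP1 and 53.9, 36.3 and 83.5 CPM in Ctr. LMP1 held 2 counts, 994-fold lower than Ctr (275 to 8215) and 1236-fold lower than Lung-LMP1 (342 to 10210), with an edgeR adjusted p of 0.0239. In Abca12, Lung-Ctr 1 was the lowest library outside LMP1. The intervals treat reads as independent molecules.

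Genes of the cornified envelope and barrier lipids are made as squamous cells mature, and 21 of the 30 could be tested. They gave 3 calls higher (0.81% over all genes tested) and none lower. Their median was 4.49, or 3.87 with the 5 members that had a group at 3 counts or fewer set at that floor. The called members were Abca12, Cers3 and Cnfn. Cers3, the ceramide synthase for very long acyl chains, had 65.7, 51.6 and 97.7 CPM in Lung-LMP1 and 39.3 and 105 CPM in Lung-Ctr, with 1.16 and 2.6 CPM in LMP1 and 101, 38 and 65.9 CPM in Ctr, and its value was 5.18 ± 0.86 (edgeR adjusted p = 0.0408). Cnfn, which encodes cornifelin of the cornified envelope, followed another pattern. It had 7.85, 7.82 and 6.51 CPM in Lung-LMP1 and 1.27 and 1.54 CPM in Lung-Ctr, with 0.264 and 0.391 CPM in LMP1 and 1.85, 1.59 and 0.826 CPM in Ctr, so that Lung-LMP1 was high, LMP1 low, and the remaining groups lay between them. Its value was 4.49 ± 0.71 (edgeR adjusted p = 0.0394), made of 2.38 ± 0.49 for Lung-LMP1 against Lung-Ctr and -2.10 ± 0.51 for LMP1 against Ctr. Psapl1, a prosaposin-like gene outside this list, was similar in pattern. It had 22.5, 32 and 29.2 CPM in Lung-LMP1 and 11.8 and 10 CPM in Lung-Ctr, with 0.422 and 0.195 CPM in LMP1 and 8.89, 14.1 and 10.7 CPM in Ctr, with no overlap between Lung-LMP1 and Lung-Ctr. Its value was 6.47 ± 0.54 (edgeR adjusted p = 0.00414), of which 1.36 ± 0.33 came from Lung-LMP1 against Lung-Ctr, and the call held in all 10 fits with 1 library left out.

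Among called genes at a mean log2 CPM of at least 3 and with more than 3 counts in every group, which leaves out Krt23 and Abca12, the largest values were headed by Ppbp, a platelet and epithelial chemokine (chr5:90768518-90770063). It had 223, 78 and 66.8 CPM in Lung-LMP1 and 6.63 and 22.2 CPM in Lung-Ctr, with 0.0528 and 1.17 CPM in LMP1 and 130.4, 64.2 and 26.8 CPM in Ctr. Its value was 10.06 ± 1.66 (edgeR adjusted p = 0.0402), made of 3.09 ± 1.01 for Lung-LMP1 against Lung-Ctr and -6.97 ± 1.31 for LMP1 against Ctr. Vnn1, a pantetheinase on the cell surface, had 14.8, 16.4 and 6.84 CPM in Lung-LMP1 and 4.02 and 0.739 CPM in Lung-Ctr, with 0.106 and 0.195 CPM in LMP1 and 37.9, 16.8 and 5.09 CPM in Ctr, and its value was 9.41 ± 1.58 (edgeR adjusted p = 0.0408). In both genes Lung-LMP1 lay above Lung-Ctr and LMP1 below Ctr, with no overlap in either pair. Trim29, a TRIM-family regulator of squamous epithelia, had 129, 149 and 139 CPM in Lung-LMP1 and 39.3 and 151 CPM in Lung-Ctr, with 0.686 and 1.11 CPM in LMP1 and 147, 37.8 and 128 CPM in Ctr, and its value was 7.41 ± 1.08 (edgeR adjusted p = 0.0308). S100a14, a small calcium-binding protein, had 261, 221 and 238 CPM in Lung-LMP1 and 39.9 and 269 CPM in Lung-Ctr, with 1.79 and 3.45 CPM in LMP1 and 183, 84 and 143 CPM in Ctr, and its value was 6.35 ± 1.07 (edgeR adjusted p = 0.0408). In Trim29 and S100a14 the lowest libraries outside LMP1 were Lung-Ctr 1 and Ctr 2.

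Tns4, a tensin that links integrins to the cytoskeleton, had 296, 205 and 123 CPM in Lung-LMP1 and 112 and 439.6 CPM in Lung-Ctr, with 0.686 and 1.56 CPM in LMP1 and 168, 58.7 and 213 CPM in Ctr, and its value was 6.64 ± 1.16 (edgeR adjusted p = 0.0437). Tmprss11e, a membrane serine protease of squamous surfaces, had 25.2, 17.2 and 17.5 CPM in Lung-LMP1 and 5.5 and 13.1 CPM in Lung-Ctr, with 0.528 and 0.847 CPM in LMP1 and 60.6, 12.9 and 14.4 CPM in Ctr, and its value was 6.51 ± 1.13 (edgeR adjusted p = 0.0428). Mal, a membrane protein of apical transport, had 109.7, 136 and 108 CPM in Lung-LMP1 and 80.7 and 49.2 CPM in Lung-Ctr, with 2.11 and 4.49 CPM in LMP1 and 78.1, 238 and 48.9 CPM in Ctr, and its value was 6.07 ± 0.98 (edgeR adjusted p = 0.0395). All 3 were below 5 CPM in both LMP1 libraries and above 5 CPM in the other 8. Pdzd2, a protein with PDZ domains, had a value of 6.58 ± 1.17 and Pyhin1, of the interferon-inducible HIN-200 family, one of 6.91 ± 1.23 (edgeR adjusted p = 0.0446 and 0.0446). Hcar2, the receptor for niacin and hydroxybutyrate, had a value of 6.18 ± 1.07 (edgeR adjusted p = 0.0435). The calls of these 12 genes other than Psapl1 held in 2 to 4 of 10 fits with 1 library left out. Without a filter on low counts, Ppbp, Pyhin1, Tns4, Pdzd2, S100a14 and Pitx1, described next, had edgeR adjusted p-values of 0.0551 to 0.0717 and were not called.

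Transcription factors of the pharynx and face, tested for 15 of 20, gave 2 calls higher (0.81% over all genes tested) and none lower. Their median was 2.61, or 2.28 with the 4 members that had a group at 3 counts or fewer set at that floor. Pax9, a factor of the pharyngeal pouches (chr12:56691767-56712822), had 75.6, 116 and 75.1 CPM in Lung-LMP1 and 73 and 67.2 CPM in Lung-Ctr, with 3.33 and 3.13 CPM in LMP1 and 81.3, 29.4 and 72.3 CPM in Ctr. Its value was 4.58 ± 0.61 (edgeR adjusted p = 0.0239), and among the other 8 libraries Ctr 2 was the lowest. Pitx1, a homeobox factor of the mouth and hindlimb, had 257, 75.8 and 177 CPM in Lung-LMP1 and 36.5 and 71.8 CPM in Lung-Ctr, with 2.48 and 4.49 CPM in LMP1 and 133, 36.2 and 67 CPM in Ctr, and its value was 6.15 ± 1.02 (edgeR adjusted p = 0.0408). A signalling and a metabolic list gave 1 call each. Bmp7, a ligand of the TGF-beta superfamily, had 109, 87.4 and 87.6 CPM in Lung-LMP1 and 98.7 and 120.1 CPM in Lung-Ctr, with 2.22 and 3.78 CPM in LMP1 and 66.9, 27.4 and 79.5 CPM in Ctr, and its value was 4.07 ± 0.62 (edgeR adjusted p = 0.0368) among 19 genes of that pathway, of which 18 did not pass. Hmgcs1, the cytosolic synthase that starts the mevalonate pathway, had 554, 662 and 599.9 CPM in Lung-LMP1 and 451 and 444 CPM in Lung-Ctr, with 287 and 291 CPM in LMP1 and 469, 398 and 469 CPM in Ctr. Its value of 1.06 ± 0.19 was the smallest of those called higher (edgeR adjusted p = 0.0469). It did not pass with RLE size factors, another scaling of the libraries, without a filter on low counts or with the length and GC offsets (edgeR adjusted p = 0.0523, 0.0563 and 0.143). Of the 22 cholesterol synthesis genes, 21 did not pass. At an edgeR unadjusted p under 0.05, 7 were above 0 and 1 below 0, beside 8.88% and 6.76% of all genes tested.

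Markers of lung were examined because of the prefix. Of 16 genes of lung lineage and alveolar cells 9 could be tested, 1 was called higher (0.81% over all genes tested), none lower, and the median was -0.20. The called member was Hopx, a homeodomain protein of alveolar and also of squamous cells. It had 27.6, 29.7 and 30.8 CPM in Lung-LMP1 and 18 and 30.7 CPM in Lung-Ctr, with 2.11 and 1.37 CPM in LMP1 and 17.4, 33 and 11.2 CPM in Ctr, and its value was 3.82 ± 0.67 (edgeR adjusted p = 0.0435). The defining surfactant genes Sftpa1, Sftpb and Sftpc were at 0.427 CPM or less in all 10 libraries. The alveolar marker sum was 28.8 to 59.4 CPM in Lung-LMP1 and 29.5 to 33.7 in Lung-Ctr, with 3.39 to 4.75 in LMP1 and 13.8 to 39.8 in Ctr. Besides Hopx it held mainly Sftpd and Ager. Sftpd was at 28.1 CPM in Lung-LMP1 2 but at 0.0727 or less in Lung-LMP1 1, Lung-Ctr 2 and Ctr 3. Ager ran from 0.494 to 2.28 CPM over all 10 libraries.

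The 11 genes called lower had both LMP1 libraries above all 3 of Ctr. The Lung-LMP1 to Lung-Ctr difference was below 0 in 9 of them and above 0 in the other 2, Cebpb and Ralgds. Only 4 of the 11 were called with offsets for transcript length and GC content, among them Amotl2, Syde1 and Mgst1, while Pcbp4, Gpsm1, Rgma, Foxc1, Cebpb and Ralgds then had edgeR adjusted p-values of 0.0533 to 0.0887. Pcbp4, an RNA-binding protein of the poly(C) family (chr9:106453291-106464012), had 7.05, 6.47 and 8.89 CPM in Lung-LMP1 and 15.4 and 9.88 CPM in Lung-Ctr, with 168 and 154 CPM in LMP1 and 10.9, 35.3 and 18 CPM in Ctr. Its value was -3.67 ± 0.60 (edgeR adjusted p = 0.0395), made of -0.76 ± 0.43 for Lung-LMP1 against Lung-Ctr and 2.91 ± 0.43 for LMP1 against Ctr. Cebpb, a factor of inflammatory and differentiation genes (chr2:167688915-167690418), had 83, 91.3 and 78.3 CPM in Lung-LMP1 and 60.7 and 62.2 CPM in Lung-Ctr, with 207 and 228 CPM in LMP1 and 56.2, 52.5 and 52.1 CPM in Ctr. Lung-LMP1 lay above Lung-Ctr and LMP1 above Ctr without overlap, and the second gap was the larger, at 2.02 ± 0.13 against 0.45 ± 0.13. Its value was -1.56 ± 0.18 (edgeR adjusted p = 0.0195), and the call held in 6 of 10 fits with 1 library left out. With the length and GC offsets it was -0.99 and did not pass (edgeR adjusted p = 0.0762). Syde1, a GTPase-activating protein, had 9.96, 9.86 and 9.64 CPM in Lung-LMP1 and 17.3 and 12.8 CPM in Lung-Ctr, with 46.2 and 42.1 CPM in LMP1 and 13.7, 15.3 and 10.8 CPM in Ctr, and its value was -2.35 ± 0.31 (edgeR adjusted p = 0.0239). Foxc1, a forkhead factor of mesenchyme and squamous progenitors, had 42.5, 35.4 and 41 CPM in Lung-LMP1 and 46.9 and 45.4 CPM in Lung-Ctr, with 141 and 93.8 CPM in LMP1 and 39.3, 46.6 and 42.2 CPM in Ctr, and its value was -1.68 ± 0.27 (edgeR adjusted p = 0.0395).

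Amotl2, an angiomotin family member and Hippo target, was the single call among 12 Hippo genes, whose median was -0.46. It had 46.7, 71.8 and 59.3 CPM in Lung-LMP1 and 143 and 165 CPM in Lung-Ctr, with 179.6 and 102 CPM in LMP1 and 61.1, 78.5 and 47.3 CPM in Ctr. The high groups were Lung-Ctr and LMP1, and the low ones Lung-LMP1 and Ctr. Neither Lung-LMP1 and Lung-Ctr nor LMP1 and Ctr overlapped. Its value was -2.55 ± 0.42 (edgeR adjusted p = 0.0395), made of -1.38 ± 0.29 and 1.18 ± 0.29. Gpsm1, a regulator of G protein signalling and spindle orientation, was crossed in the same way. It had 3.78, 2.95 and 5.35 CPM in Lung-LMP1 and 15.3 and 12.6 CPM in Lung-Ctr, with 12 and 10.4 CPM in LMP1 and 5.47, 6.1 and 4.89 CPM in Ctr, and its value was -2.82 ± 0.45 (edgeR adjusted p = 0.0395), made of -1.79 ± 0.32 and 1.03 ± 0.32. Both calls held in 2 of 10 fits with 1 library left out. Rgma, a co-receptor for bone morphogenetic proteins, had 12.6, 8.52 and 12.3 CPM in Lung-LMP1 and 23.2 and 12.9 CPM in Lung-Ctr, with 53.5 and 34.5 CPM in LMP1 and 10.6, 13.9 and 8.19 CPM in Ctr, and its value was -2.70 ± 0.49 (edgeR adjusted p = 0.0481). Mgst1, a microsomal glutathione transferase, had 25.4, 33.9 and 29.3 CPM in Lung-LMP1 and 41.9 and 57.4 CPM in Lung-Ctr, with 102 and 92.6 CPM in LMP1 and 40.7, 45.6 and 38.2 CPM in Ctr, and its value was -1.98 ± 0.27 (edgeR adjusted p = 0.0239). Ralgds, an exchange factor for Ral GTPases, had 64.3, 54.2 and 59.3 CPM in Lung-LMP1 and 48 and 44.9 CPM in Lung-Ctr, with 196 and 184 CPM in LMP1 and 64.8, 50.4 and 52.9 CPM in Ctr, and its value was -1.41 ± 0.22 (edgeR adjusted p = 0.0368).

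Mesenchymal lists leaned to values below 0, but none of their members passed at the settings used for the calls. The 9 EMT transcription factors had a median of -1.28, the 17 mesenchymal cytoskeleton and adhesion genes -0.64, the 20 collagens and matrix genes -2.52, and the 15 matrix proteases and urokinase genes -1.38. With the members that had a group at 3 counts or fewer set at that floor, the first 3 medians were -1.67, -1.08 and -2.17. At an edgeR unadjusted p under 0.05, these lists had in that order 2, 2, 1 and 3 members above 0. Below 0 they had 0, 4, 5 and 5, so the EMT list had such members above 0 only. Of all genes tested, 8.88% were above 0 and 6.76% below 0 at that threshold. Without Ctr 2 these lists had 1, 3, 5 and 1 calls lower, beside 0.74% of all genes tested. The EMT list's median was 1.63 without Lung-Ctr 1 and 0.19 without Lung-Ctr 2, and that of the proteases 0.14 without Lung-Ctr 1, so neither list's direction held. Vim, the filament protein vimentin, had 0, 1.09 and 0 CPM in Lung-LMP1 and 5.64 and 0.336 CPM in Lung-Ctr, with 1288 and 979 CPM in LMP1 and 0.142, 358 and 1.72 CPM in Ctr. It was high in LMP1 and in Ctr 2 and near 0 elsewhere, and its value of -6.11 ± 3.44 did not pass (edgeR adjusted p = 0.44). Zeb1, the EMT repressor, had 0.509, 0.705 and 0 CPM in Lung-LMP1 and 1.06 and 0 CPM in Lung-Ctr, with 34.6 and 23.1 CPM in LMP1 and 0.284, 44.5 and 0.344 CPM in Ctr, the same libraries standing out, and its value of -1.26 ± 2.90 did not pass (edgeR adjusted p = 0.889).

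Members of these lists did not all lean the same way. Twist2, the EMT factor of smallest p, had a value of 2.70 ± 0.87 and did not pass (edgeR adjusted p = 0.184). Snai2, an EMT factor that basal cells also use, had 41.9, 25.2 and 30.6 CPM in Lung-LMP1 and 3.46 and 91.6 CPM in Lung-Ctr, with 1 and 0.912 CPM in LMP1 and 26.6, 9.15 and 66.3 CPM in Ctr, with a value of 4.59 ± 1.73 (edgeR adjusted p = 0.255). Plau, the urokinase protease, had 56.2, 98.5 and 74.5 CPM in Lung-LMP1 and 186 and 107 CPM in Lung-Ctr, with 11 and 16.1 CPM in LMP1 and 142, 111 and 160.2 CPM in Ctr, and its value of 2.40 ± 0.47 just missed the threshold (edgeR adjusted p = 0.0578) and passed without Ctr 2 (edgeR adjusted p = 0.0407) or without a filter on low counts (edgeR adjusted p = 0.042). Snai2 and Plau were lowest in LMP1.

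Leaving out Ctr 2 moved further members of these lists across the threshold. Lgals1, which encodes galectin 1, had 20.1, 19.5 and 20.3 CPM in Lung-LMP1 and 7.27 and 8.26 CPM in Lung-Ctr, with 317 and 353 CPM in LMP1 and 14.2, 39.1 and 21.2 CPM in Ctr, and its value was -2.39 ± 0.49 with all 10 libraries (edgeR adjusted p = 0.0672) and -2.88 without Ctr 2 (edgeR adjusted p = 0.00586). Cald1, the actin regulator caldesmon, had 19, 23.1 and 17.5 CPM in Lung-LMP1 and 129.6 and 40.3 CPM in Lung-Ctr, with 234 and 243 CPM in LMP1 and 26.7, 141 and 53.8 CPM in Ctr, and its value was -3.79 ± 0.91 (edgeR adjusted p = 0.0995) and without Ctr 2 -4.66 (edgeR adjusted p = 0.0235). Mmp2, a gelatinase, had 0.145, 0.128 and 0.165 CPM in Lung-LMP1 and 0.776 and 1.14 CPM in Lung-Ctr, with 24 and 11.8 CPM in LMP1 and 0.284, 3.46 and 0.413 CPM in Ctr, and its value was -6.34 ± 1.41 (edgeR adjusted p = 0.0782) and without Ctr 2 -8.30 (edgeR adjusted p = 0.00551). Col4a2, a basement membrane collagen, had its high values in Lung-Ctr instead. It had 10.2, 12.7 and 7.82 CPM in Lung-LMP1 and 209 and 42.4 CPM in Lung-Ctr, with 9.5 and 11.2 CPM in LMP1 and 13.1, 10.1 and 12.1 CPM in Ctr, and its value was -3.43 ± 0.75 (edgeR adjusted p = 0.0754). Without Ctr 2 the value of Col4a2 was -3.33, and it still did not pass (edgeR adjusted p = 0.0877).

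Some fibroblast markers, but not all, were high in both LMP1 libraries and in Ctr 2. The sum of 11 was 0.509 to 1.98 CPM in Lung-LMP1 and 0.672 to 2.54 in Lung-Ctr, with 40.1 and 80.2 in LMP1 and 0.826 to 107 in Ctr, where Ctr 2 held the 107. Most of it was Col3a1, at 58.0 and 23.8 CPM in LMP1 and 91.6 in Ctr 2, and 0.138 or less in the other 7. Dcn followed it, at 10.03 and 8.79 CPM in LMP1 and 9.77 in Ctr 2, and 0.247 or less elsewhere, and Pdgfrb stood at 7.55 and 4.49 CPM in LMP1 and 1.04 in Ctr 2, and 0.0641 or less elsewhere. Lum was at 0.581 and 0.0651 CPM in LMP1, 0.901 in Ctr 2 and 0 in the other 7. Thy1 was at 0 in both LMP1 libraries and in Ctr 2, as was Mfap5, and Col1a1 at 1.58 CPM or less in all 10. Fap was highest in Lung-Ctr 1, at 2.33 CPM, and Pdgfra ran from 0.0672 to 1.425 CPM over all 10. None of the 6 that could be tested was called. The part of these markers in the results was not tested. Leukocyte markers summed to 8.08 to 41.9 CPM over all 10 libraries, mostly Cd68, with Ptprc at 0.208 CPM or less. Endothelial markers summed to 19.5 and 19.7 CPM in LMP1 and 6.03 to 10.6 elsewhere, mostly Egfl7, while Emcn and Cldn5 were at 0 in all 10.

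**Figure D4:**
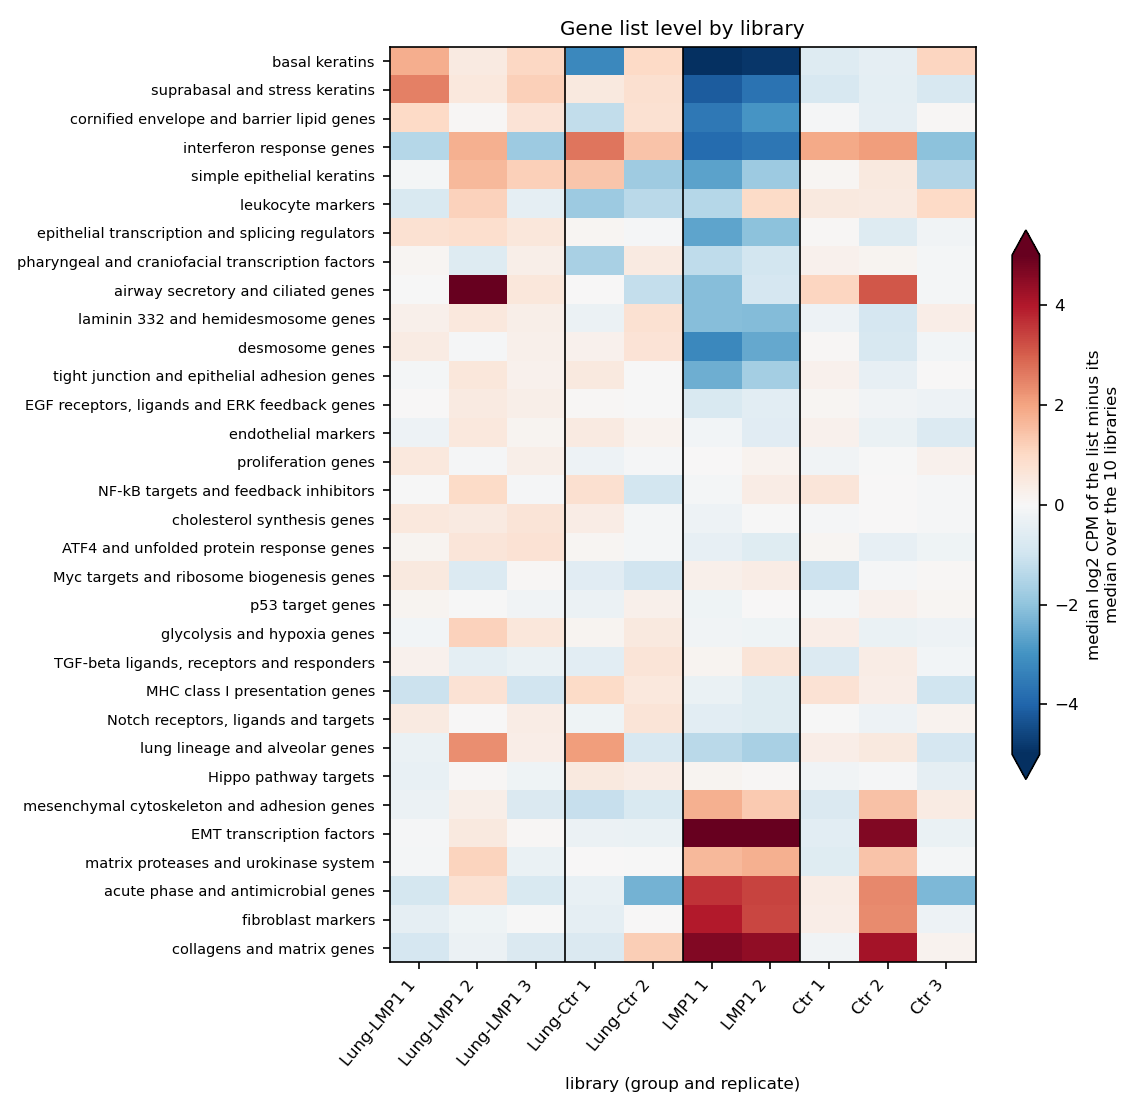
Median log2 CPM of each of 32 gene lists by library, minus its median over the 10 libraries (colour, cut off at 5 either way), with lists ordered by their median difference of differences. The epithelial lists are low in both LMP1 libraries, and the EMT, collagen and fibroblast lists are high there and in Ctr 2.

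Interferon response genes had a large median without a call. It was 3.15 over 28 genes, with -1.38 for Lung-LMP1 against Lung-Ctr and -4.95 for LMP1 against Ctr, and the smallest edgeR adjusted p was 0.151. Oasl1, an interferon-induced gene of antiviral defence, had 10.3, 18.7 and 12.6 CPM in Lung-LMP1 and 26.2 and 15.4 CPM in Lung-Ctr, with 0.633 and 0.847 CPM in LMP1 and 53.7, 28.3 and 3.1 CPM in Ctr, and its value was 4.66 ± 1.36 (edgeR adjusted p = 0.151). Usp18, which removes the modifier ISG15, had 4.65, 46 and 3.71 CPM in Lung-LMP1 and 111 and 38.8 CPM in Lung-Ctr, with 0.0528 and 0.326 CPM in LMP1 and 69.8, 61.9 and 6.54 CPM in Ctr, and its value was 5.90 ± 2.23 (edgeR adjusted p = 0.255). Lung-LMP1 2 stood above the other Lung-LMP1 libraries and Ctr 3 below the other Ctr libraries in both genes. The 15 genes of MHC class I presentation had a median of 0.08 and no call.

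Targets and feedback inhibitors of NF-kB, a pathway LMP1 is known to activate, had a median of 0.42 and no call among 24 genes. Il1a, an epithelial alarm cytokine, had 21.5, 19.3 and 11.5 CPM in Lung-LMP1 and 9.24 and 3.16 CPM in Lung-Ctr, with 0.317 and 1.11 CPM in LMP1 and 90.9, 9.7 and 7.85 CPM in Ctr, and its value was 7.17 ± 1.73 (edgeR adjusted p = 0.102). Icam1, an adhesion receptor for leukocytes, had 93.8, 93.5 and 62.8 CPM in Lung-LMP1 and 108 and 89.9 CPM in Lung-Ctr, with 14.2 and 28.8 CPM in LMP1 and 206, 39.8 and 126 CPM in Ctr, and its value was 2.29 ± 0.84 (edgeR adjusted p = 0.242). LMP1 was the low group in both. The 19 EGF receptors, ligands and ERK feedback genes had a median of 0.75 and no call, with 7 above 0 and 1 below 0 at an unadjusted p under 0.05, beside 8.88% and 6.76% of all genes tested. Erbb3, a receptor of that family, had 77.8, 162 and 111 CPM in Lung-LMP1 and 101 and 109 CPM in Lung-Ctr, with 13.7 and 20.8 CPM in LMP1 and 132, 67.8 and 85.2 CPM in Ctr, and its value was 2.62 ± 0.53 (edgeR adjusted p = 0.0665, or 0.0371 without Ctr 2 and 0.045 with the length and GC offsets). Tgfa, a ligand of the EGF receptor, had 105, 144 and 107 CPM in Lung-LMP1 and 112 and 64.4 CPM in Lung-Ctr, with 13.6 and 25.3 CPM in LMP1 and 122, 67.1 and 77.1 CPM in Ctr, and its value was 2.62 ± 0.54 (edgeR adjusted p = 0.0681, or 0.0442 without Ctr 2). Both were lowest in the 2 LMP1 libraries.

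Notch genes had a median of -0.17 and no call among 12. Dll1, a Notch ligand, had 32.2, 30 and 25.4 CPM in Lung-LMP1 and 3.1 and 28.8 CPM in Lung-Ctr, with 0.633 and 0.781 CPM in LMP1 and 18.7, 8.24 and 33 CPM in Ctr, and its value was 5.68 ± 1.29 (edgeR adjusted p = 0.0859). The remaining pathway lists had small medians, beside 0.03 over all genes, and no call. These were 0.42 for 23 proliferation genes, 0.23 for 22 Myc and ribosome biogenesis genes and 0.29 for 18 ATF4 and unfolded protein response genes. They were 0.17 for 19 glycolysis and hypoxia genes and 0.18 for 20 p53 targets. In that order 20, 15, 15, 11 and 12 members had values above 0, against 6980 of all 13460 genes tested. Perp, a p53 target and desmosome component, had 536, 388 and 452 CPM in Lung-LMP1 and 291 and 691 CPM in Lung-Ctr, with 78.3 and 91.5 CPM in LMP1 and 427, 270.5 and 543 CPM in Ctr, and its value was 2.19 ± 0.55 (edgeR adjusted p = 0.111). Slc7a11, the cystine transporter of the ATF4 response, had 574, 893 and 1081 CPM in Lung-LMP1 and 326 and 970.5 CPM in Lung-Ctr, with 82.6 and 82.6 CPM in LMP1 and 378, 253 and 793 CPM in Ctr, and its value was 2.91 ± 0.81 (edgeR adjusted p = 0.138). Airway genes had a median of 2.61 over the 9 of 18 tested, and acute phase genes -1.59 over 11 of 16, with no call in either. Muc4, a membrane mucin, had 40.7, 188 and 54.1 CPM in Lung-LMP1 and 15 and 3.23 CPM in Lung-Ctr, with 0.37 and 1.24 CPM in LMP1 and 116, 108 and 2.75 CPM in Ctr, spanning a wide range within Lung-LMP1 and within Ctr, and its value was 9.96 ± 2.29 (edgeR adjusted p = 0.0869).

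**Figure D5:**
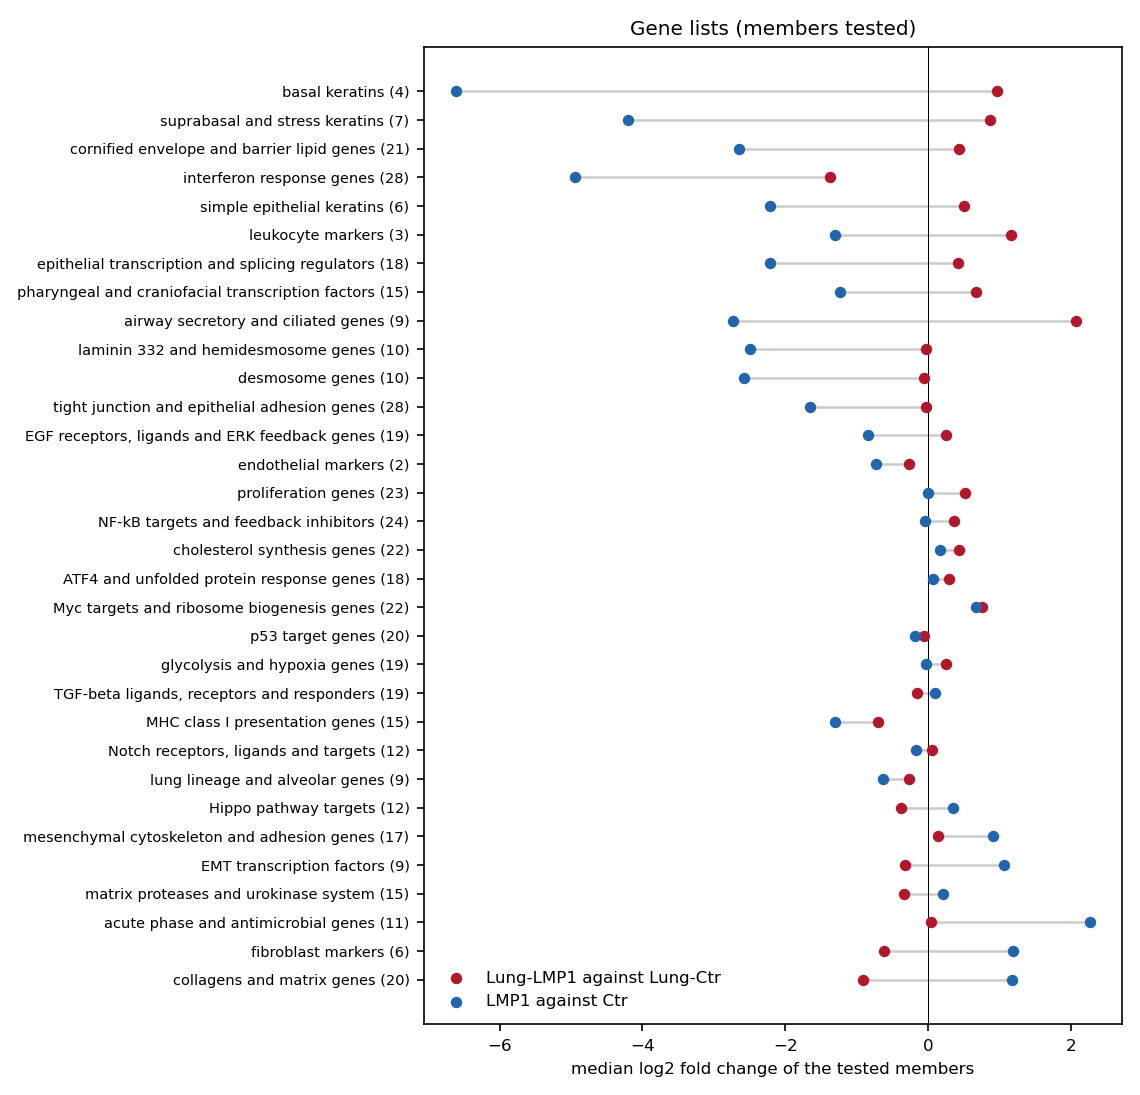
Median log2 fold change of the tested members of 32 gene lists (number tested in brackets) for Lung-LMP1 against Lung-Ctr (red) and LMP1 against Ctr (blue). Desmosome genes lie near 0 in red (-0.05) and below 0 in blue (-2.58), while basal keratins lie at 0.97 in red and -6.61 in blue. Collagens and matrix genes lie at -0.91 in red and 1.18 in blue.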

How the data were processed

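Polyadenylated RNA of the 10 tumour organoid libraries was analysed from whole-number read counts per gene symbol that the authors deposited, per the file headers. Per the submitters' processing notes, the authors used STAR, the mm10 build, DESeq2 and DESeq. The sources used here name no counting tool, annotation or version. Each library was taken once from 4 tables of 24421 genes, and its 10 repeated columns were identical. Another 20 columns of scaled values were not used, nor were 6 libraries of normal tissue. Dates stood in place of 27 symbols, and those genes stayed in the fit unnamed.

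The test was edgeR's quasi-likelihood F-test (edgeR 4.0.16, R 4.3.3) on the counts, after filterByExpr by group and TMM scaling, with robust dispersion estimates, 1 mean per group and 6 residual degrees of freedom. P-values were adjusted by Benjamini-Hochberg over 13460 genes. CPM are TMM-scaled, and log2 CPM use a prior count of 2. Standard errors follow from the fitted value and its test. Whether replicates come from separate animals or cultures is not stated, and p-values therefore cover just the spread between these samples, which may be technical. Floors of 3 counts and 95% intervals cover counting error only. Where counting could split reads between paralogs or overlapping genes, values are uncertain. The procedure was tested on simulated counts in which only the Lung-LMP1 libraries were changed, so that test does not cover low counts in LMP1.

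The members, the 32 gene lists and the tests were chosen with earlier results of these data known. Named by rule were Trp53, Cdkn2a and Myc, and the 12 called genes of highest and of lowest value (9 were left in the second set) whose mean log2 CPM is 3 or more, with over 3 counts in each group and no predicted symbol. The rule adds such genes with a group at 3 counts or fewer, and up to 3 called members of a list or, with none called, the 2 of smallest p. Esrp1, Foxa1, Cldn7, Inadl, Vim, Zeb1 and other genes beyond the rule were named after their values were seen, and Krt5, Trp63, Cdh1 and Epcam as fixed markers. A few called genes are left out of the text but stay in every count. Positions are from GENCODE vM21 on GRCm38 (mm10), with none found for Inadl and Pyhin1, and promoters are from RefSeq on GRCm38.p6. Alternatives were DESeq2 1.42.0, RLE size factors, no filter, each library left out, a replicate block, offsets for transcript length and GC content (mgcv 1.9.3, 96.3% of genes tested), non-robust dispersions and, chosen after seeing the data, Ctr 2 and Lung-Ctr 1 both left out. Deviations of same-numbered libraries of different groups from their group means had r between -0.43 and 0.19 over 13 pairs of libraries, and the numbers were not taken as pairs. In groups of 2 libraries the deviations mirror each other, so this check cannot decide whether the numbers pair libraries.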

Additional observations from a re-analysis of the deposited data

Results flagged for a closer look

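The genotype difference itself differed between samples with and without the Lung prefix, by edgeR's test of the difference of differences, in 120 genes, and the values of the named ones are given here on the log2 scale. Among genes of epithelial regulation and adhesion they were 3.96 for Grhl3, 3.38 for Grhl2, 4.28 for Ap1m2 and 3.37 for Rab25. Genes of the desmosome and basement membrane gave 3.05 for Pkp3, 4.65 for Lamb3 and 2.0 for Itga3. Barrier genes gave 5.18 for Cers3 and 4.49 for Cnfn. Genes named for their size, with more than 3 counts in every group, gave 10.06 for Ppbp, 9.41 for Vnn1, 7.41 for Trim29, 6.91 for Pyhin1, 6.64 for Tns4 and 6.58 for Pdzd2, followed by 6.51 for Tmprss11e, 6.47 for Psapl1, 6.35 for S100a14, 6.18 for Hcar2, 6.15 for Pitx1 and 6.07 for Mal. Developmental and metabolic genes gave 4.58 for Pax9, 4.07 for Bmp7, 3.82 for Hopx and 1.06 for Hmgcs1.

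Values below 0 were -3.67 for Pcbp4, -2.82 for Gpsm1, -2.70 for Rgma, -2.55 for Amotl2 and -2.35 for Syde1, and -1.98 for Mgst1, -1.68 for Foxc1, -1.56 for Cebpb and -1.41 for Ralgds. Abca12 and Krt23, with 3 counts or fewer in LMP1, had edgeR adjusted p-values of 0.0239 and 0.0469.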

How the results depend on the processing

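The count of genes called was 120 (109 higher, 11 lower). DESeq2 called 926 genes (627 higher, 299 lower), the fit without a filter on low counts 18 lower, and the fit without Ctr 2 and Lung-Ctr 1, chosen after seeing the data, 318 (217 higher, 101 lower). With 1 library left out the counts ran from 4 to 331, with 4 to 232 higher and 0 to 99 lower. The replicate block called 2 genes (2 higher, 0 lower) with or without the length and GC offsets. Without the offsets, 1228 genes had an edgeR unadjusted p under 0.05 in it. The labels do not say whether the numbers pair libraries, and the reason for this drop in calls was not tested. The causes of these shifts were not tested, and the leave-out fits change both the number of samples and which libraries remain. RLE size factors, non-robust dispersions and the length and GC offsets gave totals of 114 to 134, but the offsets kept 105 of the 120 calls (101 of 109 higher, 4 of 11 lower), the RLE factors 114 and the fit without a filter 111. All 120 genes had the same sign in each alternative. Without Lung-Ctr 2 the uncalled values of Trp53 (0.13), Cdkn2a (0.40) and Col1a1 (1.35) changed sign, and with 1 library left out they ran from -0.46 to 0.13, from -1.19 to 0.40 and from -3.72 to 1.35. Groups of 2 libraries, with 1 left in some of these fits and then assumed to vary like the rest, limit the precision of every value.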

Other observations

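Other called genes, chosen here for their small adjusted p or their pattern after their values were seen, widen the picture. Apobec1, a cytidine deaminase that edits RNA (chr6:122577792-122602444), had 109, 92.9 and 89 CPM in Lung-LMP1 and 127 and 134 CPM in Lung-Ctr, with 4.17 and 4.95 CPM in LMP1 and 111, 70.1 and 103 CPM in Ctr, and its value was 3.95 ± 0.32 (edgeR adjusted p = 0.00414). Ly6a, a surface antigen of many mouse epithelial and blood progenitors, had 891, 1888 and 1159 CPM in Lung-LMP1 and 1800.0 and 1120.0 CPM in Lung-Ctr, with 14.4 and 21.5 CPM in LMP1 and 1023, 703 and 1155 CPM in Ctr, and its value was 5.59 ± 0.58 (edgeR adjusted p = 0.0104). Gpx2, an epithelial glutathione peroxidase, had 277, 329.6 and 302 CPM in Lung-LMP1 and 467 and 443 CPM in Lung-Ctr, with 2.17 and 6.32 CPM in LMP1 and 221, 124 and 400.1 CPM in Ctr, and its value was 5.30 ± 0.78 (edgeR adjusted p = 0.0313). Serpinb5, the serpin maspin, had 107, 104 and 104 CPM in Lung-LMP1 and 106 and 135 CPM in Lung-Ctr, with 1.11 and 2.47 CPM in LMP1 and 63.5, 35.5 and 138 CPM in Ctr, and its value was 5.28 ± 0.81 (edgeR adjusted p = 0.0368). In all 4 genes the 2 LMP1 libraries lay far below the other 8, and the Lung-LMP1 mean lay below the Lung-Ctr mean.

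A smaller set of called genes stood apart in Lung-LMP1 as well. Sult2b1, a sulfotransferase that makes cholesterol sulfate in the skin barrier, had 36.6, 17.7 and 23 CPM in Lung-LMP1 and 5.01 and 8.94 CPM in Lung-Ctr, with 2.43 and 2.02 CPM in LMP1 and 12.9, 5.47 and 12.1 CPM in Ctr, and its value of 4.07 ± 0.70 (edgeR adjusted p = 0.0428) was made of 1.88 ± 0.49 for Lung-LMP1 against Lung-Ctr and -2.19 ± 0.51 for LMP1 against Ctr. Sfn, the epithelial 14-3-3 sigma protein, had 354, 246 and 216 CPM in Lung-LMP1 and 73.6 and 137 CPM in Lung-Ctr, with 7.18 and 14 CPM in LMP1 and 62.7, 73.4 and 172 CPM in Ctr, and its value was 4.65 ± 0.76 (edgeR adjusted p = 0.0402). Both were highest in the 3 Lung-LMP1 libraries and lowest in the 2 LMP1 libraries. Katnal1, a microtubule-severing enzyme subunit, ran the other way, with 1.89, 2.75 and 1.73 CPM in Lung-LMP1 and 10.4 and 8.67 CPM in Lung-Ctr, with 17.5 and 12.6 CPM in LMP1 and 5.76, 8.04 and 2.75 CPM in Ctr, and its value was -3.61 ± 0.64 (edgeR adjusted p = 0.0446).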
